A study of Mus musculus with 24 samples.

Results

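Gene expression was compared between dipyridamole and vehicle in the cerebellum of mice that lack Npc1. The 8 libraries compared were chosen by their labels, 4 from Npc1-/- cerebella given dipyridamole and 4 from Npc1-/- cerebella given vehicle, out of 24 libraries in the study. NPC1 is a lysosomal membrane protein that passes cholesterol out of the lysosome, and its loss causes Niemann-Pick disease type C1, in which unesterified cholesterol and glycosphingolipids build up in lysosomes. In the cerebellum of Npc1-deficient mice, Purkinje cells degenerate and microglia become activated. Dipyridamole is a vasodilator and platelet inhibitor that blocks equilibrative nucleoside transporters, so that extracellular adenosine stays higher, and inhibits several cyclic nucleotide phosphodiesterases, the enzymes that break down cAMP and cGMP.

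The mice were of the strain BALB/cNctr-Npc1m1N/J, in which the Npc1-/- mice carry a null allele of Npc1 in every cell. The treated group, DIP, was 4 Npc1-/- mice aged 63 days that received 30 mg/kg of dipyridamole by intraperitoneal injection on 5 days a week, starting at postnatal day 28. The Npc1-/- vehicle group was 4 mice aged 63 days that received the PBS:PEG400 solvent on the same schedule, and 4 Npc1+/+ mice aged 65 days on vehicle gave the wild-type level. The DIP group held 2 males and 2 females and the vehicle group 3 males and 1 female, while all 4 Npc1+/+ mice were female, so sex was a term in the fit. Cerebellum and hippocampus were taken from each mouse, and each library is 1 tissue of 1 mouse. RNA was measured with an amplicon panel, in which each gene is read through a short amplified stretch, and the values deposited for each gene are unnormalized read counts. Levels are given here as CPM, reads of a gene scaled to a common library size. They are compared between samples and not between genes.

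The cerebellar libraries held 1833609 to 11324116 counts, and the 4 DIP libraries 6117929 to 8810041. The shallowest library was vehicle replicate 2, which also lay furthest from the other libraries of its group. Markers of cerebellar granule cells were present in every library, with the α6 subunit of the GABA-A receptor, Gabra6, at 187 to 254 CPM in DIP libraries, 149 to 264 CPM in vehicle libraries and 322 to 483 CPM in Npc1+/+ libraries. Vehicle replicate 1 stood apart in choroid plexus, the secretory epithelium of the ventricles that adjoins the cerebellum. The summed level of 16 choroid plexus genes was 163 CPM in that library, against 2723 to 3502 CPM in the other 3 vehicle libraries and 1892 to 3499 CPM in DIP libraries. In whole tissue, a lower level of a cell type's genes cannot tell fewer cells from less RNA per cell.

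Npc1 itself, on chromosome 18 from 12322749 to 12369457 on the minus strand (GRCm39), was read first because the genotype sets its level. It stood at 13.9, 25.0, 16.6 and 28.7 CPM in the 4 DIP libraries, against 39.4, 25.3, 33.8 and 22.7 CPM in the 4 vehicle libraries, with 102 to 112 CPM in Npc1+/+ cerebella. All 8 libraries labelled Npc1-/- were far below every library labelled Npc1+/+. The DIP and vehicle values overlapped, 2 of the 4 DIP libraries lying under the lowest vehicle library. The log2 fold change, DIP over vehicle, was -0.60 ± 0.22 (SE, n = 4 each) with an unadjusted p of 0.0133 in edgeR's quasi-likelihood test, and it did not pass the adjustment over all genes. In the hippocampus of the same mice the DIP and vehicle levels were 15 to 20.4 CPM and 16.9 to 22.2 CPM.

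The main result is that no gene passed the test. Of 12921 genes that passed the count filter, 0 were called in edgeR's quasi-likelihood test at a Benjamini-Hochberg adjusted p under 0.05, which is 0.0% of the genes tested, and the smallest adjusted p was 0.9998. At an unadjusted p under 0.05 there were 300 genes (2.32%), 146 with a higher and 154 with a lower fitted level in DIP libraries (1.13% and 1.19%). About 5% of genes would be expected there if no gene differed, so 2.32% is no excess. DESeq2 also called 0 genes, with 313 at an unadjusted p under 0.05, and limma-voom called 0, with 394. Leaving out single libraries gave 0 called each time. The number at an unadjusted p under 0.05 then ran between 139, without DIP replicate 1, and 846, without vehicle replicate 2. Those 846, of 13066 tested, are more than 5%, so the reading of no excess did not hold without that library, the shallowest. The smallest adjusted p in that fit was 0.742. The number was 508 without DIP replicate 2 and 634 without vehicle replicate 3, each under 5%. The DIP and vehicle libraries did not overlap for 156 genes (1.21%), of which 82 were higher (0.635%) and 74 lower (0.573%) in DIP cerebella.

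The fitted differences were small for most genes. The median log2 fold change was -0.01, the median size regardless of sign was 0.13, and 95% of genes lay within 0.51 of 0. The data bound the response more tightly than a bare count of calls does. For 11149 genes (86.3%) the 95% interval of the log2 fold change lay inside a 2-fold change in either direction, and for 6934 genes (53.7%) inside 1.5-fold. That precision depended on level. When the genes were split by mean level into 4 equal sets, 51.2% of intervals lay inside 2-fold in the lowest set, which reached up to 7.9 CPM, beside 96.1%, 98.6% and 99.3% in the 3 sets above it.

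**Figure D1:**
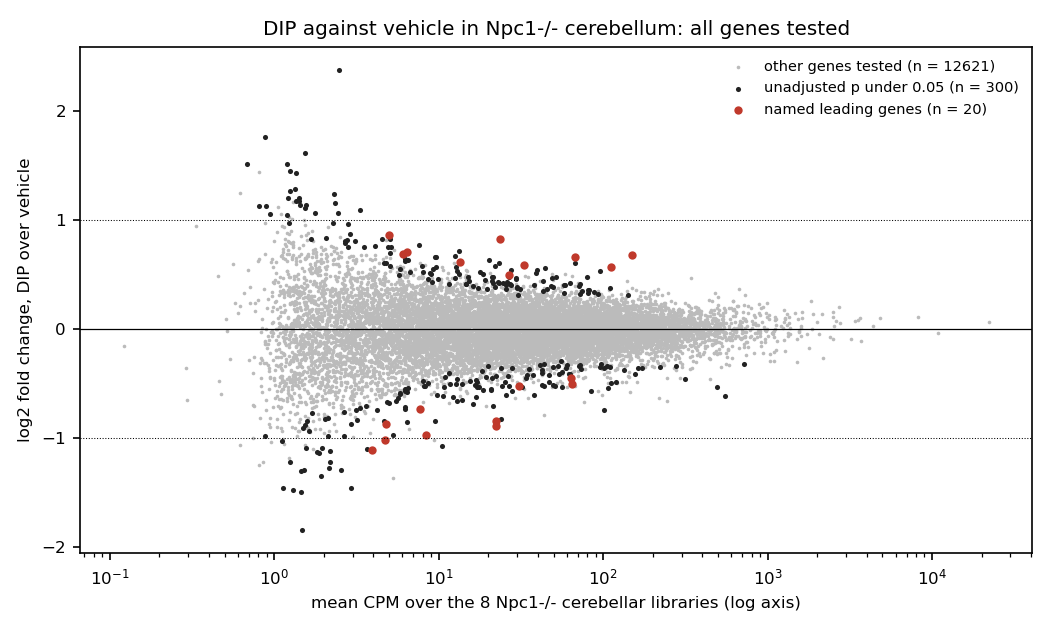
The log2 fold change (DIP over vehicle, vertical axis) of 12921 genes is plotted against their mean level in CPM over the 8 Npc1-/- cerebellar libraries (horizontal log axis), with the 300 genes at an unadjusted p under 0.05 in black, the 20 leading genes in red and dotted lines at 2-fold. The cloud narrows with level, and genes beyond 2-fold are nearly all at low levels.

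Fitted differences beyond 2-fold were seen for 66 genes, 32 higher and 34 lower in DIP cerebella. Of the 10748 genes with a group mean of at least 5 CPM, 6 were beyond 2-fold, all with lower values in DIP cerebella, and they are named here after their values were seen. They were Arpc3, a subunit of the Arp2/3 actin-nucleating complex, Ndufa11, a subunit of mitochondrial complex I, Cbr1, a carbonyl reductase, and Tph2, Slc6a4 and Rln3. Tph2 makes serotonin, Slc6a4 is the serotonin transporter, and Rln3 is a neuropeptide of the nucleus incertus, a pontine cell group near the cerebellum. Slc6a4 was at 8.37, 10.3, 17.8 and 7.91 CPM in DIP libraries, against 14.7, 5.39, 22.9 and 35.6 CPM in vehicle libraries. Tph2 was at 2.63, 9.14, 11.1 and 4.75 CPM in DIP libraries, against 13.7, 0.539, 13.7 and 19.7 CPM in vehicle libraries. Both genes varied several-fold among vehicle libraries and less among DIP libraries, and the groups overlapped. Neither gene reached an unadjusted p of 0.05 (0.153 for Slc6a4 and 0.183 for Tph2). Rln3 ranged between 0.239 and 7.81 CPM in DIP libraries and between 1.62 and 10.5 CPM in vehicle libraries, and 1 Npc1+/+ library had no read of it. The 17 genes listed as marks of neighbouring brain regions, Tph2 among them, summed to 176 to 210 CPM in DIP libraries and 166 to 200 CPM in vehicle libraries. That sum did not follow Tph2. It was 192.3 CPM in vehicle replicate 2, where Tph2 was at 0.539 CPM, and highest, at 209.6 CPM, in DIP replicate 1. Prox1 alone gave 55.0 to 78.0 CPM of it. Cbr1 was at 1.43, 9.14, 5.40 and 14.3 CPM in DIP libraries, against 14.2, 8.62, 13.6 and 17.7 CPM in vehicle libraries, with an unadjusted p of 0.0252.

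Because no gene passed, the 10 genes with the smallest unadjusted p in each direction and a group mean of at least 5 CPM are given as values. Their unadjusted p ran between 0.00125 and 0.0105, none had an adjusted p below 0.9998, and each kept its sign in all alternative fits in which it had a value. In 9 of these 20 the DIP and vehicle libraries did not overlap, which follows from how they were chosen and is not a further result.

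The roles given for these genes are background, and no list was formed or tested from them. Among the 10 with higher fitted levels, Arid4a, a chromatin-binding subunit of Sin3-histone deacetylase complexes, was at 46.2, 35.3, 31.5 and 42.6 CPM in DIP libraries, against 31.2, 23.7, 21.8 and 30.7 CPM in vehicle libraries. Every DIP library was above every vehicle library, by a small margin, and the Npc1+/+ libraries were at 38.0 to 52.9 CPM. Its log2 fold change was 0.59 ± 0.17 (SE, n = 4 each; unadjusted p = 0.0035). Zfp180, a zinc finger protein, was at 30.8, 31.5, 29.4 and 33.0 CPM in DIP libraries, against 24.4, 21.0, 20.1 and 23.3 CPM in vehicle libraries. These were among the tightest groups of the 20, and the Npc1+/+ libraries lay higher still at 34.3 to 51.6 CPM. Pou2f1, the octamer-binding factor Oct-1, was at 6.09, 8.49, 8.27 and 10.3 CPM in DIP libraries, against 5.37, 2.69, 5.00 and 5.11 CPM in vehicle libraries. The lowest vehicle value was that of the shallowest library. Zzz3, a subunit of the ATAC histone acetyltransferase complex, had a log2 fold change of 0.62 ± 0.18, Ssbp2, a cofactor of LIM-domain factors, of 0.83 ± 0.25, and Tbx18, a T-box factor known in pericytes and other mural cells, of 0.86 ± 0.28, all with overlapping groups.

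In the next 3 the groups overlapped. Fam171a2, a membrane protein, was at 161, 120, 118 and 107 CPM in DIP libraries, against 101, 111, 54.7 and 124 CPM in vehicle libraries. The vehicle library at 54.7 CPM was replicate 3, the only vehicle female, and the log2 fold change was 0.57 ± 0.16 in all libraries and 0.33 in the males alone. Slc9a3r2, a scaffold of sodium-proton exchangers, was likewise lowest in that library, at 26.2 CPM, with a log2 fold change of 0.66 ± 0.21 in all libraries and 0.37 in the males alone. Trpc7, a cation channel, had a log2 fold change of 0.69 ± 0.24.

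Among the 10 with lower fitted levels, Osbpl5, an oxysterol-binding-protein relative that moves lipids at contacts of the endoplasmic reticulum, was at 9.92, 17.1, 22.5 and 18.1 CPM in DIP libraries, against 28.4, 24.8, 28.7 and 29.2 CPM in vehicle libraries. The groups did not overlap, and the Npc1+/+ libraries, at 11.3 to 22.1 CPM, covered much the same range as the DIP libraries. Its log2 fold change was -0.84 ± 0.22 (SE, n = 4 each; unadjusted p = 0.00181), and leaving out single libraries gave -1.05 to -0.59. Rab18, a small GTPase of lipid droplets and the endoplasmic reticulum, was at 21.9, 25.8, 27.1 and 29.4 CPM in DIP libraries, against 31.9, 34.5, 42.1 and 34.4 CPM in vehicle libraries. Here the DIP libraries lay further from the Npc1+/+ libraries, which were at 44.3 to 57.8 CPM, than the vehicle libraries did. Copz1, a coat subunit of COPI vesicles, was at 35.5, 57.0, 69.0 and 63.9 CPM in DIP libraries, against 69.2, 67.3, 85.5 and 69.2 CPM in vehicle libraries. Those groups overlapped, with the largest deviation in DIP replicate 1.

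Erlec1, a lectin of endoplasmic reticulum quality control, was at 47.7, 60.7, 54.1 and 56.1 CPM in DIP libraries, against 71.3, 80.8, 77.6 and 66 CPM in vehicle libraries. The groups did not overlap, the log2 fold change was -0.45 ± 0.14, and Npc1+/+ libraries were at 65.8 to 80.9 CPM. Tspan14, a tetraspanin that escorts the protease ADAM10, was at 7.17, 17, 27.9 and 16.5 CPM in DIP libraries, against 29.9, 22.6, 28.7 and 29.0 CPM in vehicle libraries. The DIP values spread nearly 4-fold, and the log2 fold change moved between -1.22 and -0.53 when single libraries were left out. Arhgap25, a GTPase-activating protein of blood and myeloid cells, was at 3.82, 5.71, 7.81 and 7.00 CPM in DIP libraries, against 8, 9.69, 9.87 and 9.77 CPM in vehicle libraries, and at 1.54 to 2.40 CPM in Npc1+/+ libraries. The sums of the microglial lists overlapped between DIP and vehicle. Slc18a2, the vesicular monoamine transporter, was at 2.39, 3.10, 4.36 and 4.29 CPM in DIP libraries, against 4.62, 6.46, 6.71 and 6.32 CPM in vehicle libraries. It did not overlap between groups, unlike the serotonin genes Tph2 and Slc6a4, and Npc1+/+ libraries were at 1.08 to 2.60 CPM. Ndufa11 was at 1.43, 2.29, 3.90 and 2.82 CPM in DIP libraries, against 4.25, 5.39, 4.74 and 6.62 CPM in vehicle libraries, and oxidative phosphorylation as a list had a median log2 fold change of -0.05. Crym, a thyroid-hormone-binding protein, had a log2 fold change of -0.97 ± 0.25, the smallest unadjusted p of the 20 at 0.00125, and Arpc3 one of -1.02 ± 0.28. Vehicle replicate 2 was at the level of the DIP libraries for both, at 5.92 CPM for Crym and 2.69 CPM for Arpc3.

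**Figure D2:**
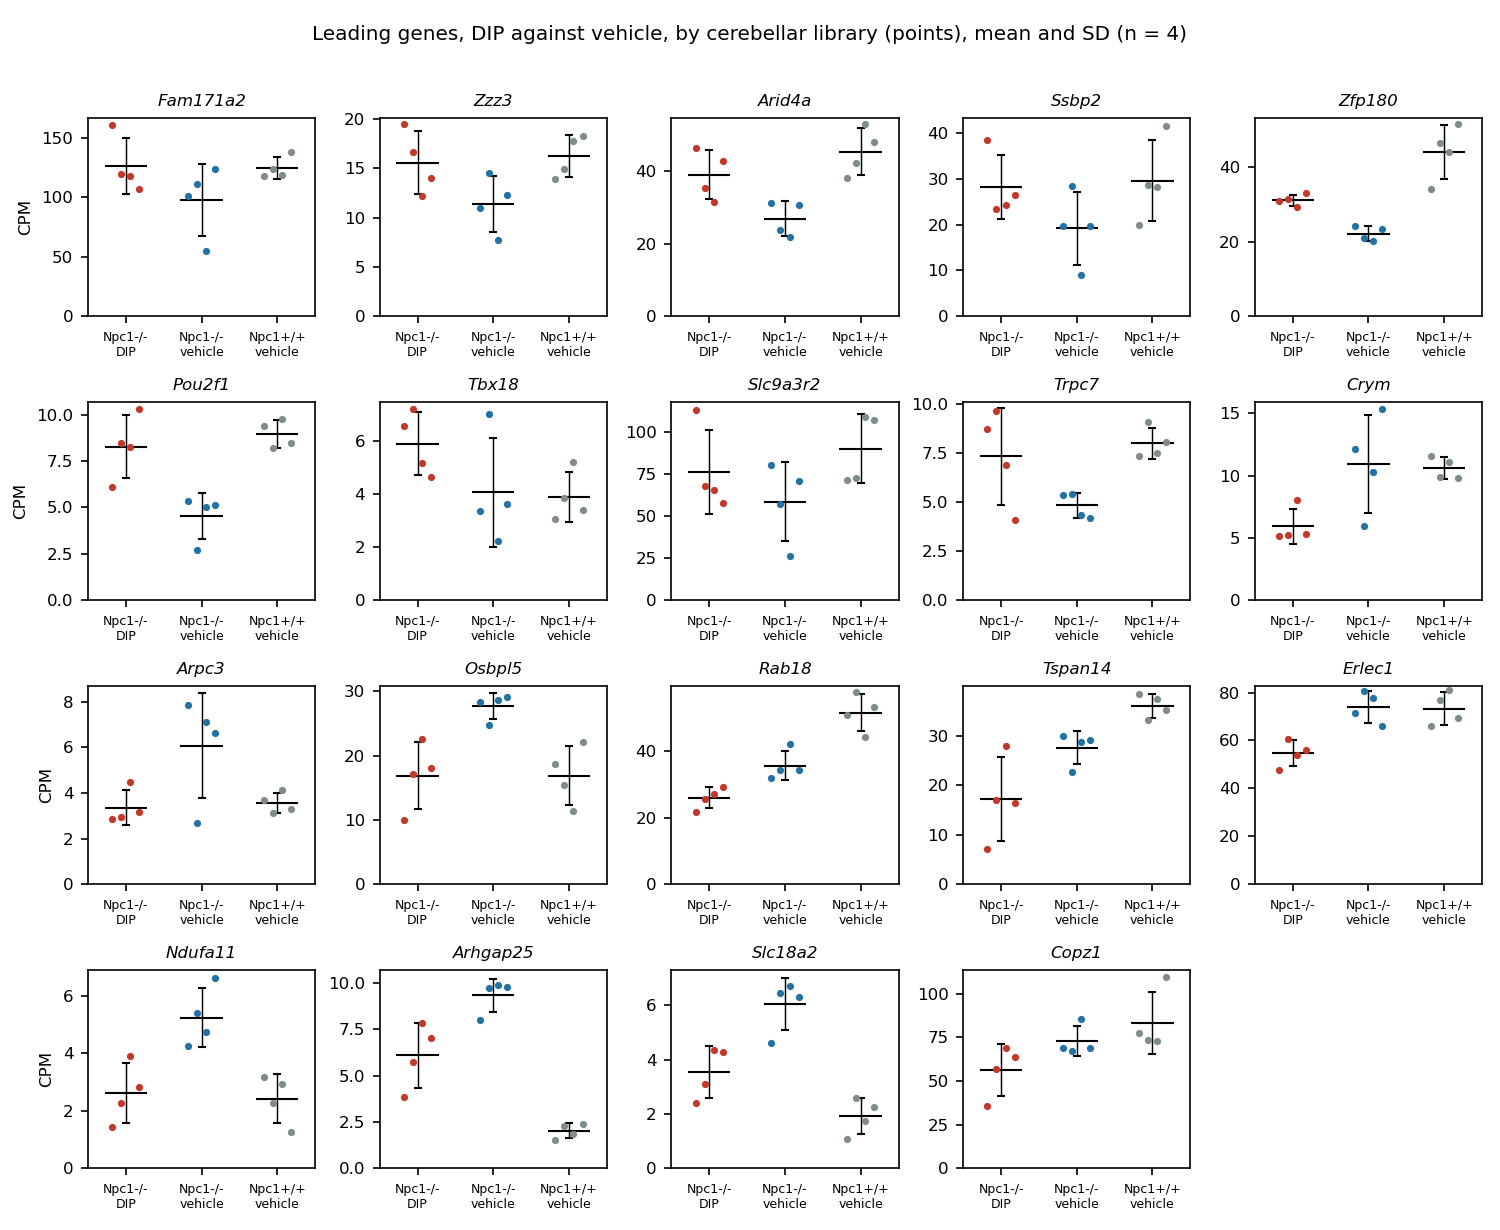
Each panel plots the CPM of a leading gene in the 4 DIP (red), 4 vehicle (blue) and 4 Npc1+/+ (grey) cerebellar libraries as points, with the mean and SD. In 9 panels the red and blue points do not overlap, and for Tbx18, Crym, Rab18, Tspan14, Erlec1 and Copz1 the DIP mean lies further from the Npc1+/+ mean than the vehicle mean does.

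The proteins that dipyridamole acts on were followed through the genes of their classes. All 4 equilibrative nucleoside transporters, Slc29a1 to Slc29a4, were measured well enough to be tested, while the 3 concentrative ones were not. Slc29a1, which encodes ENT1, the transporter most sensitive to dipyridamole, was at 18.9, 11.3, 13.7 and 9.15 CPM in DIP libraries, against 13.2, 17.8, 10.8 and 11.6 CPM in vehicle libraries. The groups overlapped fully, and the log2 fold change was 0.12, with a 95% interval between -0.33 and 0.58. Slc29a2 and Slc29a3 had log2 fold changes of -0.02 and 0.00 with intervals inside 0.42 of 0, and Slc29a4 had 0.27 (95% interval -0.38 to 0.92). Of the 4 adenosine receptors, Adora1, which inhibits adenylyl cyclase, and Adora2a, which stimulates it, were tested. Adora1 was at 7.53, 3.27, 5.51 and 5.76 CPM in DIP libraries, against 4.25, 3.23, 3.95 and 8.42 CPM in vehicle libraries. The intervals were wide at such levels, -0.51 to 0.83 for Adora1 and -0.87 to 1.01 for Adora2a, so that a 1.5-fold higher level of either was within the error. Of 15 enzymes of adenosine formation and removal, none had an unadjusted p under 0.05, and the median log2 fold change was -0.01. Enpp1, an ectoenzyme that hydrolyses ATP, had the groups apart, at 5.26 to 6.44 CPM in DIP libraries against 3.23 to 4.66 CPM in vehicle libraries, with a log2 fold change of 0.37 ± 0.24 (unadjusted p = 0.149).

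The phosphodiesterases were bounded more tightly. Of 19 listed, 17 were tested, 7 with a log2 fold change above 0 and 10 below, between -0.25 and 0.21 with a median of -0.03. All 17 intervals lay inside a 2-fold change. Pde10a, a dual cAMP and cGMP phosphodiesterase, was at 112, 106, 132 and 111 CPM in DIP libraries, against 127, 123, 110 and 112 CPM in vehicle libraries, with a log2 fold change of -0.04 (95% interval -0.32 to 0.23). Pde5a, a cGMP-specific enzyme and a known target of the drug, was at 18.2, 13.7, 14.2 and 15.9 CPM in DIP libraries, against 12.4, 16.2, 16.6 and 11.9 CPM in vehicle libraries, while the Npc1+/+ libraries were at 42.8 to 51.8 CPM. Both Npc1-/- groups thus lay far below wild type for Pde5a and overlapped with each other, with a log2 fold change of 0.13 (95% interval -0.24 to 0.50). Pde8a, a cAMP-specific enzyme insensitive to the general inhibitor IBMX, had the lowest value, -0.25 (95% interval -0.61 to 0.11), and Pde11a, a dual-specificity enzyme, the highest, 0.21 (-0.36 to 0.78).

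**Figure D3:**
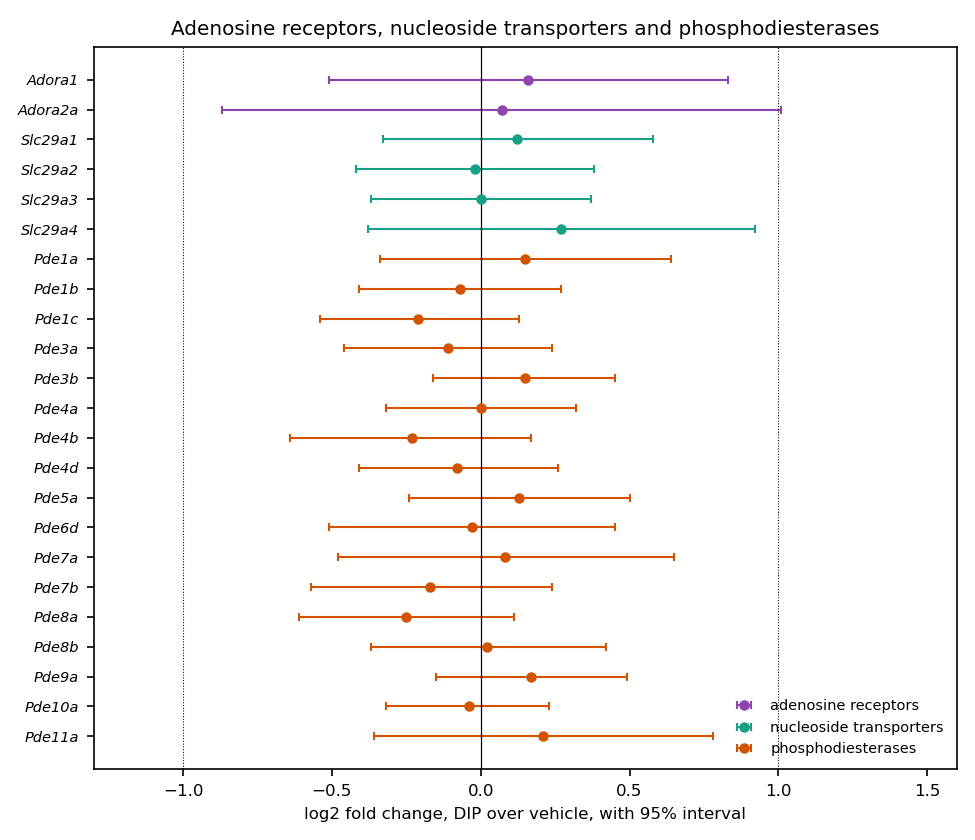
Points give the log2 fold change, DIP over vehicle (horizontal axis), of 2 adenosine receptors, 4 nucleoside transporters and 17 phosphodiesterases, with bars for the 95% interval and dotted lines at 2-fold. Every interval crosses 0, and 22 of the 23 stay inside 2-fold, Adora2a just passing it.

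A rise in cAMP acts on transcription through protein kinase A and the factor CREB, which binds the cAMP response element TGACGTCA. Of 30 immediate early genes and CREB targets, 25 were tested, 0 were called, and 19 had log2 fold changes below 0, with a median of -0.09 beside -0.01 for all genes. Per1, a clock gene and CREB target, was at 104, 149, 122 and 79.6 CPM in DIP libraries, against 132, 163, 142 and 176 CPM in vehicle libraries, with a log2 fold change of -0.38 ± 0.18 and an unadjusted p of 0.0487. Fos, the immediate early gene most used as a mark of neuronal activity, was at 17.3, 24.2, 17.9 and 16.6 CPM in DIP libraries, against 19.6, 26.4, 17.1 and 29.6 CPM in vehicle libraries. Nr4a1, an orphan nuclear receptor induced by cAMP, was at 14.7, 18, 12.3 and 13.0 CPM in DIP libraries, against 17.5, 14.5, 12.0 and 28.1 CPM in vehicle libraries. DIP and vehicle overlapped for all 3, and for Fos and Nr4a1 all 8 Npc1-/- libraries were below the Npc1+/+ libraries, which were at 34.2 to 55.7 CPM for Fos and 43.1 to 77.0 CPM for Nr4a1. Among 21 genes of cyclic nucleotide signalling the median log2 fold change was 0.02, and Prkaca, the catalytic subunit of protein kinase A, was at 608 to 711 CPM in DIP libraries against 467 to 764 CPM in vehicle libraries.

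The element was also searched for in promoters, since a cAMP response would be read at genes that carry it. The RefSeq promoter table (GRCm38.p6) gives the 250 bases before each gene's start, and the palindrome TGACGTCA, which reads the same on both strands, was found in 508 of 32851 of these promoters (1.55%). The stretches around it in 4 CREB targets of the list that carry it are shown, with the element in capitals, because they are the sites at which the question is put. They lie at chr1:134079284-134079351 on the minus strand for Btg2, an antiproliferative gene, at chr7:45526269-45526310 on the minus strand for Ppp1r15a, which encodes the phosphatase subunit GADD34, at chr13:75089749-75089816 on the plus strand for Pcsk1, a prohormone convertase, and at chr17:26508578-26508645 on the minus strand for Dusp1, a MAP kinase phosphatase.
Btg2: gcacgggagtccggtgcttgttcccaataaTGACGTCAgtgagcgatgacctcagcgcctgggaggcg
Ppp1r15a: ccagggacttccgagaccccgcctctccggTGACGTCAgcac
Pcsk1: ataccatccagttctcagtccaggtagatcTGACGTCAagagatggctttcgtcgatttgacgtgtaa
Dusp1: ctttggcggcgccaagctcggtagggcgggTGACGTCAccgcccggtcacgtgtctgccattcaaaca
None of these 4 genes reached an unadjusted p of 0.05. Btg2 was at 10.5, 9.14, 5.97 and 4.41 CPM in DIP libraries, against 6.62, 7.54, 7.63 and 9.47 CPM in vehicle libraries, with a log2 fold change of 0.00 ± 0.25. Ppp1r15a was at 31.7, 32.2, 31.9 and 27.0 CPM in DIP libraries, against 21.5, 26.4, 31.6 and 36.2 CPM in vehicle libraries, with a log2 fold change of 0.08 ± 0.17. Dusp1 was at 14.3, 24.5, 13.1 and 10.3 CPM in DIP libraries, against 15.9, 34.5, 16.2 and 31.9 CPM in vehicle libraries, and its log2 fold change was -0.47 ± 0.27 (unadjusted p = 0.102). Of 10060 tested genes with a promoter sequence, 298 had the element. Over these 298, 0 were called, 11 had an unadjusted p under 0.05 (3.69%), 5 with higher and 6 with lower values, and the median log2 fold change was -0.03. The share at an unadjusted p under 0.05 was 2.32% over all 12921 genes tested, which include genes with no promoter searched.

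The genes that separate Npc1-/- from Npc1+/+ cerebella were then read in treated and untreated mutants. Of the 12921 genes, the 4 DIP libraries lay wholly above the Npc1+/+ libraries for 1728 (13.4%) and wholly below for 1615 (12.5%). The 4 vehicle libraries lay wholly above for 1423 (11.0%) and wholly below for 1239 (9.59%). These 2 comparisons share the Npc1+/+ libraries, all female, so their values are set side by side only. Such counts also depend on the spread within a group. A distance was taken over the genes that differed most between each pair of libraries. Its mean to the own group was 1.446 to 1.632 for DIP and 1.818 to 2.424 for vehicle libraries. To Npc1+/+ libraries it was 2.384 to 2.638 for DIP and 2.369 to 2.965 for vehicle libraries. Whether DIP cerebella lay further from wild type was not tested.

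Disease-associated microglia are the lipid-handling state that microglia take up around degenerating neurons. The 24 genes of that list summed to 6829, 6241, 6941 and 6862 CPM in DIP libraries, against 8223, 5997, 6429 and 7434 CPM in vehicle libraries, and to 2244 to 2606 CPM in Npc1+/+ libraries. Of 20 members tested, 20 lay wholly above wild type in DIP and 20 in vehicle cerebella, beside 13.4% and 11.0% of all genes. Between DIP and vehicle 0 were called, 18 of the 20 intervals lay inside 2-fold, and the median log2 fold change was -0.06. Trem2, the lipid-sensing receptor that microglia need to enter the state, was at 79.5, 62.7, 46.9 and 41.2 CPM in DIP libraries, against 44.2, 92.6, 55.8 and 46.8 CPM in vehicle libraries. Clec7a, the β-glucan receptor dectin-1, was at 46.0, 36.2, 44.1 and 44.8 CPM in DIP libraries, against 56.3, 45.2, 41.3 and 40.9 CPM in vehicle libraries. For both genes the DIP and vehicle ranges overlapped, while the highest Npc1+/+ library was at 5.67 CPM for Trem2 and 1.14 CPM for Clec7a. Lyz2, the myeloid lysozyme, had a log2 fold change of 0.10 (95% interval -0.22 to 0.42), and Gpnmb, a glycoprotein induced by lysosomal stress, of -0.18 (-0.62 to 0.27). Cd68, a lysosomal glycoprotein of macrophages, was at 74.1, 127, 99.3 and 131 CPM in DIP libraries, against 150, 110, 135 and 146 CPM in vehicle libraries, with -0.36 ± 0.20 and an unadjusted p of 0.0917. Lgals3, another member of the list, went the other way, with 0.48 ± 0.26 and an unadjusted p of 0.0719. For Lgals3, 3 of the 4 DIP libraries lay above every vehicle library, and the groups overlapped. Itgax, a further microglial marker, had 0.38 (95% interval -0.11 to 0.88). Of the 20 members tested, 5 had log2 fold changes above 0 and 15 below.

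Homeostatic microglial genes summed to 697 to 987 CPM in DIP libraries and 647 to 947 CPM in vehicle libraries, with a median log2 fold change of -0.02 over 14 tested. P2ry12, the ADP receptor that guides microglial processes, was at 2.03, 3.10, 4.59 and 5.87 CPM in DIP libraries, against 10.7, 2.69, 4.61 and 8.87 CPM in vehicle libraries. Its log2 fold change was -0.97 ± 0.42 (unadjusted p = 0.0415), and it lay between -1.70 and -0.57 when single libraries were left out. It was -1.68 in males, and 0.18 in females, where the vehicle side is 1 library. Complement genes had a median of 0.16 over 9 tested, and C3, the central complement protein, was at 18.6 to 28.7 CPM in DIP libraries against 20.5 to 37.4 CPM in vehicle libraries. Among 18 interferon-response genes the median was 0.05, and Oas1a, which makes 2′-5′-linked oligoadenylates, was the only member of the list with groups apart, at 0.653 to 1.55 CPM in DIP libraries against 1.62 to 2.69 CPM in vehicle libraries (unadjusted p = 0.0558). Psmb9, an interferon-inducible proteasome subunit of the antigen presentation list, had a log2 fold change of 1.14 ± 0.47 at no more than 2.75 CPM. Reactive astrocyte genes summed to 733 to 894 CPM in DIP libraries, 769 to 853 CPM in vehicle libraries and 265 to 296 CPM in Npc1+/+ libraries. Gfap, the astrocytic intermediate filament, was at 164, 115, 140 and 114 CPM in DIP libraries, against 142, 158, 124 and 143 CPM in vehicle libraries, and 8.68 to 9.71 CPM in Npc1+/+ libraries.

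Purkinje cells, whose axons carry all output of the cerebellar cortex, gave the converse pattern between genotypes. The 33 genes of the Purkinje list summed to 3741, 3851, 3686 and 3487 CPM in DIP libraries, against 3333, 3482, 4045 and 3588 CPM in vehicle libraries, and to 11430 to 12470 CPM in Npc1+/+ libraries. Of 32 members tested, 28 lay wholly below wild type in DIP cerebella and 28 in vehicle cerebella, beside 12.5% and 9.59% of all genes. Between DIP and vehicle the median log2 fold change was 0.01, 0 were called, and 30 intervals lay inside 2-fold. Calb1, which encodes the calcium buffer calbindin, was at 51.3, 66.1, 47.1 and 59.6 CPM in DIP libraries, against 43.2, 41.5, 84.0 and 50.8 CPM in vehicle libraries, and 665 to 738 CPM in Npc1+/+ libraries. Itpr1, the calcium channel of the endoplasmic reticulum that Purkinje cells hold in plenty, was at 249, 379, 331 and 323 CPM in DIP libraries, against 291, 227, 432 and 294 CPM in vehicle libraries. Both genes overlapped fully between the treated and untreated mutants, with 95% intervals of -0.40 to 0.36 for Calb1 and -0.42 to 0.39 for Itpr1. Pcp2, a G-protein modulator specific to Purkinje and retinal bipolar cells, was at 375, 230, 211 and 155 CPM in DIP libraries, against 115, 208, 258 and 171 CPM in vehicle libraries. Its log2 fold change was 0.37 (95% interval -0.19 to 0.94), and it lay between 0.03 and 0.89 when single libraries were left out, so an effect of up to nearly 2-fold is within the error. Granule cell genes had a median of 0.01 over 17 tested, all with intervals inside 2-fold, and Bergmann glia genes, of the glia that flank Purkinje dendrites, had -0.04 over 13, all inside 2-fold as well.

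Lysosomal and sterol genes were bounded for nearly every member. The 46 tested genes of the lysosome list all had intervals inside 2-fold, with log2 fold changes between -0.36 and 0.36 and a median of 0.02. Npc2, which encodes the luminal protein that hands cholesterol to NPC1, was at 288, 421, 344 and 453 CPM in DIP libraries, against 410, 194, 422 and 380 CPM in vehicle libraries, and 130 to 230 CPM in Npc1+/+ libraries. The 22 tested genes of cholesterol synthesis and its regulation, which respond to sterol in the endoplasmic reticulum through SREBP-2, had a median of -0.08, and all intervals lay inside 2-fold. Sqle, the squalene epoxidase, was at 139, 129, 140 and 122 CPM in DIP libraries, against 122.9, 167.5, 129.5 and 166.1 CPM in vehicle libraries. The groups overlapped, with a 95% interval of -0.39 to 0.17, and both Npc1-/- groups lay above the Npc1+/+ libraries at 98.4 to 108 CPM. The 16 LXR targets and lipoprotein genes, which answer to oxysterols, had a median of -0.01 and lay inside 2-fold in full. Apoe, the main lipid carrier of the brain, was at 1934, 1399, 1478 and 1418 CPM in DIP libraries, against 1616, 1488, 1429 and 1438 CPM in vehicle libraries, and 374 to 495 CPM in Npc1+/+ libraries. Abca1, the exporter that loads it, had -0.05 (95% interval -0.46 to 0.36). Sphingolipid enzymes had a median of -0.04 over 27, and Sptlc2, a subunit of the first enzyme of sphingolipid synthesis, was at 28.4, 27.4, 41.0 and 28.0 CPM in DIP libraries, against 38.6, 40.9, 35.7 and 42.5 CPM in vehicle libraries (-0.36 ± 0.17, unadjusted p = 0.0485). Autophagy genes had -0.01 over 19, and Ulk2, an initiating kinase, was at 22.0, 19.1, 14.7 and 13.8 CPM in DIP libraries, against 13.1, 11.3, 12.1 and 15 CPM in vehicle libraries (0.48 ± 0.18, unadjusted p = 0.017).

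**Figure D4:**
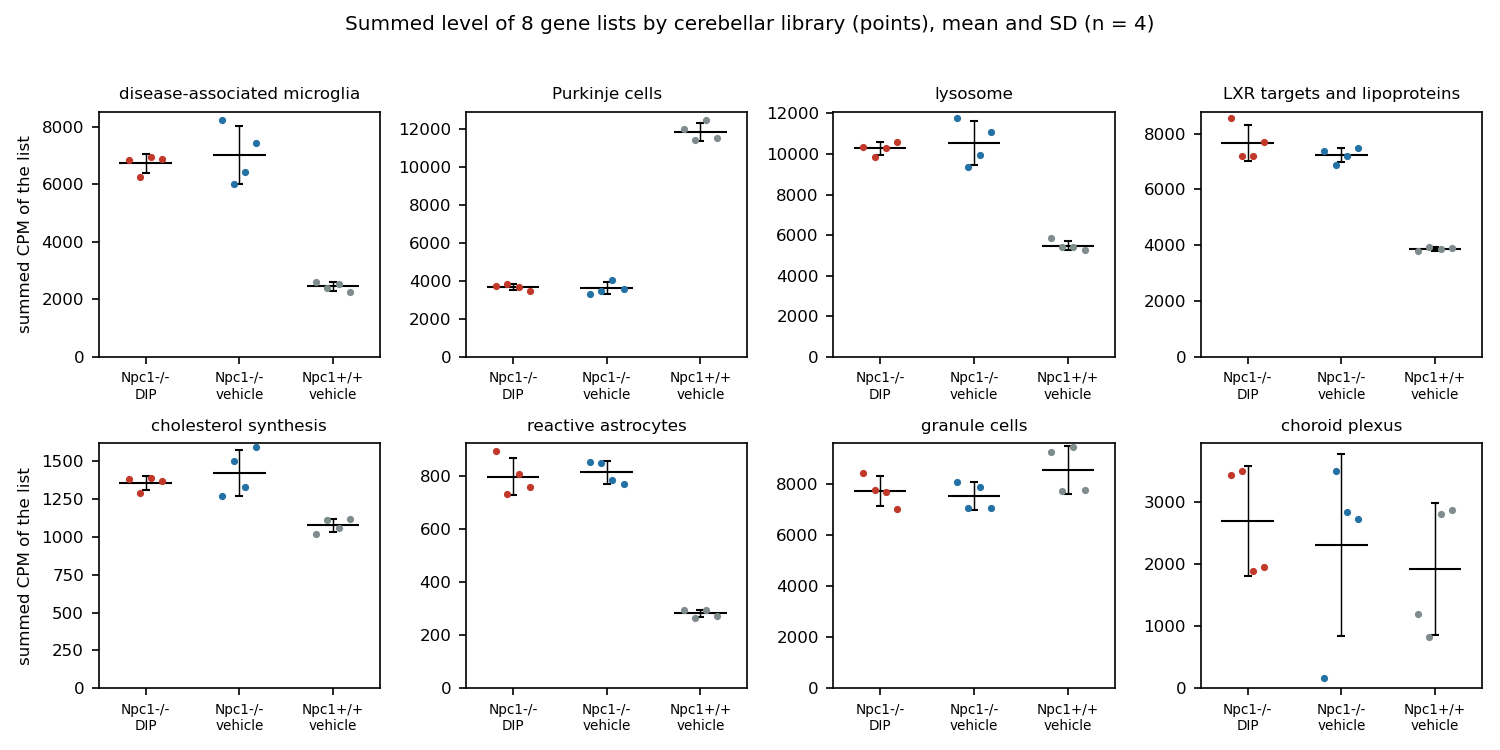
Each panel plots the summed CPM of a gene list in the 4 DIP (red), 4 vehicle (blue) and 4 Npc1+/+ (grey) cerebellar libraries, with the mean and SD. DIP and vehicle overlap in all 8 panels, and both lie apart from Npc1+/+ for microglia, Purkinje cells, lysosome, LXR targets, cholesterol synthesis and reactive astrocytes; the low blue point for choroid plexus is vehicle replicate 1 at 163 CPM.

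Over all 41 lists, 669 distinct genes were tested, 0 were called, and 12 had an unadjusted p under 0.05 (1.79%, beside 2.32% of all genes). The intervals of 603 (90.1%) lay inside 2-fold. The lists with 10 or more members tested had medians between -0.12, for glucocorticoid-responsive genes, and 0.22, for choroid plexus. In the glucocorticoid list, 12 of 15 members had values below 0, and Zbtb16, a zinc finger gene of that list, was at 63.3, 42.8, 42.0 and 33.7 CPM in DIP libraries, against 37.9, 45.2, 30.5 and 19.9 CPM in vehicle libraries. The choroid plexus list was poorly bounded, 3 of its 16 intervals lying inside 2-fold. Its defining markers Ttr, Folr1, Kcnj13, Sostdc1 and Clic6 were all lowest in vehicle replicate 1, where Ttr, the thyroid hormone carrier of that epithelium, was at 19.4 CPM, against 1257 to 2699 CPM in DIP libraries and 1962 to 2792 CPM in the other vehicle libraries.

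**Figure D5:**
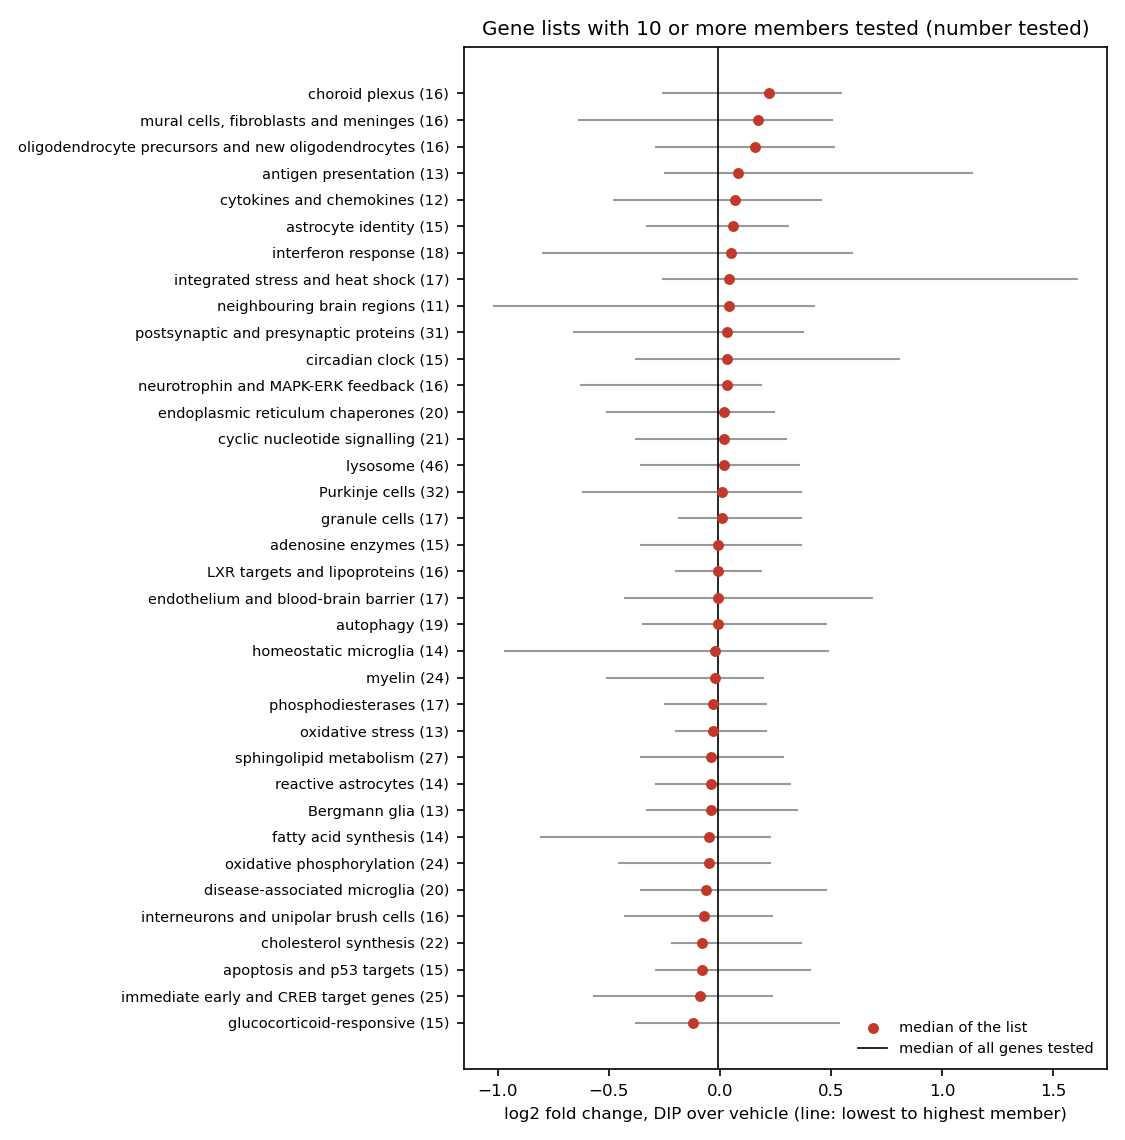
Red points give the median log2 fold change, DIP over vehicle, of each gene list with 10 or more members tested (number in brackets), grey lines the lowest to highest member, and the black line the median of all genes tested. The medians lie between -0.12 and 0.22 and none of the members was called.

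Among the remaining members with an unadjusted p under 0.05, Hspa1a had the largest fitted value. It encodes an inducible heat shock protein and has a near-identical neighbour, Hspa1b, with which it can share reads, so its counts are uncertain. It was at 2.99, 1.47, 2.99 and 2.03 CPM in DIP libraries, against 0.500, 0.539, 1.05 and 0.752 CPM in vehicle libraries, and 1.47 to 4.67 CPM in Npc1+/+ libraries. The groups did not overlap, the log2 fold change was 1.61 ± 0.52 (unadjusted p = 0.00381), and the low counts leave a 95% interval of 0.53 to 2.7. Shmt2, the mitochondrial serine hydroxymethyltransferase, was at 37.6, 33.6, 32.6 and 31.2 CPM in DIP libraries, against 31.1, 25.9, 26.8 and 25.9 CPM in vehicle libraries, again with no overlap (0.32 ± 0.15, unadjusted p = 0.0425). Opalin, a membrane glycoprotein of myelinating oligodendrocytes, was at 39.4, 41.8, 53.6 and 25.0 CPM in DIP libraries, against 54.5, 56.5, 47.6 and 78.0 CPM in vehicle libraries, with overlap. The 24 tested myelin genes had a median of -0.02, 23 with intervals inside 2-fold. Col1a1, a chain of fibrillar collagen, had a log2 fold change of 0.51 ± 0.22, and Il33, a nuclear cytokine of glia, had -0.48 ± 0.21, both with overlapping groups.

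The sexes were read apart because they were unequal in number. With 2 DIP and 3 vehicle males, 0 of 12712 genes were called and 260 had an unadjusted p under 0.05 (2.05%). With 2 DIP females, 1 vehicle female and the 4 Npc1+/+ females in the fit, 0 of 13526 were called and 300 had an unadjusted p under 0.05 (2.22%), where the single vehicle female is assumed to vary like the other groups. The count at an unadjusted p from the female fit rests on that assumption and carries little weight, so no conclusion is drawn from it beside the male count. For the same reason no p-value of a single gene is given from the female fit.

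The hippocampus of the same mice gave 0 called genes of 12740 in edgeR's quasi-likelihood test, with 93 at an unadjusted p under 0.05 (0.73%). Whether the response differed between the tissues was tested within mice. Of 13436 genes 0 were called for a difference, cerebellar minus hippocampal, with 222 at an unadjusted p under 0.05 (1.65%), and DESeq2 called 0, with 169. The genes with the smallest unadjusted p for that difference are given as values. Tspan14 had a difference of -1.03 ± 0.29 on the log2 scale, with hippocampal levels of 22.9, 24.5, 34.0 and 40.7 CPM in DIP and 25.4, 22.3, 28.0 and 29.6 CPM in vehicle mice. Hspa1a had 1.98 ± 0.58, its hippocampal levels being 1.58 to 2.75 CPM in DIP and 1.99 to 3.52 CPM in vehicle mice. In both genes the hippocampal DIP and vehicle libraries overlapped. Htr5b, a serotonin receptor gene, was at 0.478, 0, 0 and 0.226 CPM in cerebellar DIP libraries, against 1.5, 1.62, 0.790 and 4.66 CPM in cerebellar vehicle libraries, and its fitted difference of -3.16 rests on a few reads. Shox2 and Wnt10b, at under 1 CPM in every hippocampal library of the first and in most cerebellar libraries of the second, had differences of 4.15 and 4.08 with SEs of 1.83 and 1.79.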

How the data were processed

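RNA of each tissue, purified with a kit for lipid-rich tissue and DNase, was turned into amplicon libraries with the Ion AmpliSeq mouse panel and read on the Ion S5 system, per the labels' protocols. The submitters' processing notes name FastQC 0.11.9, Trimmomatic 0.39, STAR 2.7.9a and featureCounts 2.0.3 and the build GRCm39. GENCODE M34 genes were counted without regard to strand, per the file headers. The deposited values are raw read counts for 57126 genes, which the authors did not normalize. Without strand, antisense reads count towards a gene they overlap, and the amplicons were not located here.

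Cerebellar counts were fitted with edgeR 4.0.16 (R 4.3.3): TMM factors, filterByExpr over the 3 groups, the robust quasi-likelihood test, all 12 cerebellar libraries, and sex as a covariate, with Benjamini-Hochberg adjustment and a threshold of 0.05. SEs and 95% intervals come from the quasi-likelihood variance. The difference between tissues was fitted over 24 libraries with the mouse as block and tissue by sex terms, the pairing coming from the animal numbers in the labels. CPM use TMM-scaled totals. The test was tried on simulated counts with known changes. The labels do not say that replicate numbers of DIP and vehicle mice pair them. Replicates differed beyond counting noise (chi-square over its degrees of freedom 6.64 to 35.8), so each counted as its own sample. PCR reads carry no molecular identifiers, so a level near 0 is limited by counting.

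Named genes were Npc1, the 10 smallest p in each direction with a group mean of at least 5 CPM, all members of the 3 drug classes, up to 2 members per list, and 5 genes for the tissue difference, without Y-linked genes, Xist or clone names. Further genes were picked after their values were seen: Slc6a4, Rln3 and Cbr1, and well-known markers such as Trem2, Clec7a, Gpnmb, Lyz2, Apoe, Abca1, Sqle, Npc2, Gfap, Fos and Nr4a1. Some genes that the rule names are not reported here. The groups, lists and tests were chosen with earlier results of these data known. Alternatives were DESeq2 1.42.0, limma-voom (limma 3.58.1), other scalings, filters, covariates and subsets, and each library left out. Symbols were matched by gene ID for 51884 IDs. Promoter sequences are RefSeq's (GRCm38.p6), and no coordinate was converted between builds.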

Additional observations from a re-analysis of the deposited data

Results flagged for a closer look

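In groups of 4, a library whose gap to the nearest other exceeded Dixon's 95% critical value was marked, and 11 of 178 groups checked were, where chance marks about 5%. In the DIP group, replicate 2's disease-associated microglia sum of 6241 CPM lay below the other 3 (6829 to 6941 CPM). The DIP group also had a library total of 6117929 counts beside 8418158 to 8810041, a sum of oligodendrocyte precursor genes of 485.2 CPM beside 507.2 to 511.6 CPM, and Crym at 8.039 CPM in replicate 3 beside 5.139 to 5.309 CPM. In the vehicle group, the sum of oxidative phosphorylation genes reached 7778 CPM in 1 library beside 6955 to 7090 CPM. Replicate 2, the shallowest, was low for Pou2f1 (2.693 CPM beside 5.001 to 5.371), for Tspan14 (22.62 CPM beside 28.69 to 29.86) and for Pde8b (35.54 CPM beside 49.46 to 51.58). Arhgap25 was low in replicate 1 (7.995 CPM beside 9.694 to 9.869). Replicate 3, the vehicle female, was high for Copz1 (85.53 CPM beside 67.32 to 69.2) and for Pde1c (97.77 CPM beside 61.49 to 65.7). None of these genes was called in the filtered test; Tspan14 was called when no count filter was used. The part of single libraries in the values was not tested beyond leaving each out.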

How the results depend on the processing

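The count of 0 called genes, DIP against vehicle, held in 20 of 21 alternatives, 19 planned and 2 chosen after seeing the data. Among the 21 is the fit of females, whose vehicle side is 1 library, so its count carries little weight. The exception was the fit with no count filter, which called 13 of 19178 genes, 3 higher and 10 lower, of which 9 were in the filtered test and 1 had groups that did not overlap. Tspan14 (-0.88) was among them and was called in no other alternative. Leaving out single libraries gave 0 to 0 called, with 139 (without DIP replicate 1) to 846 genes (without vehicle replicate 2) at an unadjusted p under 0.05. It was 634 without vehicle replicate 3 and 508 without DIP replicate 2. Of these fits only the one without vehicle replicate 2, with 846 of 13066 genes, was above the 5% expected if no gene differed. The added fits, without vehicle replicates 1 and 2 together and with the GC slope of each library as covariate, called 0, with 339 and 326. Same-numbered DIP and vehicle libraries deviated with correlations of -0.435, 0.104, -0.002 and 0.171, which gave no sign that the numbers pair them. Between differently numbered libraries the correlations ran from -0.618, for DIP replicate 4 with vehicle replicate 2, to 0.573, for DIP replicate 1 with vehicle replicate 2. What these larger correlations reflect was not tested. The fit with a replicate block called 0, with 131 at an unadjusted p under 0.05. The tissue difference stayed at 0 in all 14 alternatives, also with the mouse block left out (0, with 193). Of 2435 alternative values of the 119 named genes, 2365 stayed within the spread of replicates, 68 moved by more and 2 passed the test, both with no count filter, and of 819 list medians 776 stayed and 43 moved. Depth limits the genes of lowest level, the lowest of 4 equal sets having 51.2% of intervals inside 2-fold. Inside 1.5-fold lie 53.7% of all intervals, so for the other genes a change of that size is within the error.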
